A study of Homo sapiens with 9 samples.

Results

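KLF2, the FOXO transcription factors FOXO1, FOXO3 and FOXO4, and 4 genes known to be under FOXO control (DEPP1, PIK3IP1, SESN3 and CITED2) were followed in DOHH2 lymphoma cells before and after growth in mouse bone. The 8 genes are 8 of the 58243 gene identifiers counted in each library, and all 8 passed the filter on low counts. They were selected on values measured in these libraries, namely the rise of KLF2 and DEPP1 in femur cells, so every comparison of a femur group with culture is given for them as a description and without a p-value. DOHH2 is an established human B-cell line from a follicular lymphoma that had transformed to an aggressive form. RNA-seq counts were available for DOHH2 cells cultured until the day of grafting (day 0, called culture), and for human CD20+ cells sorted from femurs of DOHH2-injected RAGγc mice, which lack lymphocytes of their own, at day 19 and at day 40, with 3 libraries per group. No other treatment or genetic change is named in the labels for any group. Femur cells were flushed and digested out of bone with DNase, Liberase and collagenase, depleted of mouse Cd45 and Ter119 cells with beads, and sorted, and the labels describe none of this for cultured cells, so that handling and growth in the mouse cannot be told apart in any comparison with culture. No culture or animal is named in the labels, so p-values reflect the spread among these libraries, and part of it may be technical.

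FOXO proteins are forkhead transcription factors that carry the output of the PI3K pathway. When growth factor or antigen receptor signals activate PI3K and its kinase AKT, AKT phosphorylates FOXO proteins, 14-3-3 proteins hold them in the cytoplasm, and their targets are silent; when the pathway is quiet, FOXO proteins enter the nucleus and switch on genes of cell cycle arrest, cell death, stress resistance and nutrient sensing. In B cells FOXO1 is the dominant family member and is needed for the germinal centre dark zone, and follicular lymphoma derives from germinal centre B cells. KLF2 is a zinc finger factor of resting lymphocytes that controls their migration, is switched on by FOXO1 in T cells, and in endothelium by the kinases MEK5 and ERK5 through MEF2 factors. These regulatory steps act on proteins, which RNA counts do not measure.

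The sequence just upstream of the KLF2 and DEPP1 start sites is shown because these genes had the largest folds among the 8, and because the known inputs, MEF2 for KLF2 and FOXO for DEPP1, have recognisable motifs. Sequences are from RefSeq on GRCh38.p14, read 5′ to 3′ on the strand of the gene, and capitals mark the motif match. KLF2 is shown for chr19:16324576-16324825 on the plus strand, with a match to the MEF2 consensus, and DEPP1 for chr10:44978810-44979059 on the minus strand, with a match to the FOXO motif GTAAACA.
KLF2: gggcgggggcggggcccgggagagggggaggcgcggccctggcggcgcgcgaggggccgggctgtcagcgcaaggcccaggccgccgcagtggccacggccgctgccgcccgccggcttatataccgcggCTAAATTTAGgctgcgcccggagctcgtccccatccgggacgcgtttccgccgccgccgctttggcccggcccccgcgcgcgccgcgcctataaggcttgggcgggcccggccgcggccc
DEPP1: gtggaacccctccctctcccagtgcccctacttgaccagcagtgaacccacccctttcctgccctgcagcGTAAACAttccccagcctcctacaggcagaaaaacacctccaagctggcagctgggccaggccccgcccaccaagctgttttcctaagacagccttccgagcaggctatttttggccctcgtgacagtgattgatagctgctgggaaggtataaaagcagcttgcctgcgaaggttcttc
The FOXO motif also occurred close to the start of FOXO4, at chrX:71095864-71095890 on the plus strand, and of PIK3IP1, at chr22:31292456-31292482 on the minus strand, where it reads TGTTTAC because it lies on the opposite strand.
FOXO4: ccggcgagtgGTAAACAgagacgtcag
PIK3IP1: aaagagaggcTGTTTACcagaacagca
Windows of 250 bases before to 50 bases after each RefSeq start were searched on both strands. The letters GTAAACA were found for DEPP1, FOXO4 and PIK3IP1, 3 of the 8 genes, against 4.19% of 27305 genes with a window (1145 genes); some genes have several windows. Among 34 other FOXO-regulated genes with a window, 4 held the motif: BCL2L11, HBP1, MXI1 and TXNIP. The MEF2 consensus, which reads the same on both strands, occurred in KLF2, 1 of the 8 genes, against 3.67% of genes. In KLF2 it began 120 bases before the start, and the FOXO motif of DEPP1 began 180 bases before its start. The KLF2 stretch was 80% G and C, against 57.2% in the DEPP1 stretch. A match is a string of letters, not evidence of binding, and the counts hold no measure of binding.

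Libraries held 21071239 to 29456271 counts, and 15163 genes were tested. Log2 CPM correlated at r = 0.987 to 0.993 within groups and at r = 0.942 to 0.962 between femur and culture libraries, as a description over genes. The 6 B cell markers were all detected and summed to 2276 to 2488 CPM (read counts scaled to a common library size, after TMM correction) at day 19 and 2691 to 2905 CPM at day 40, against 3503 to 4459 CPM in culture. Markers of T and NK cells (1.23 to 2.05 CPM in femur libraries, against 3.99 to 5.01 CPM in culture) and of myeloid cells (2.42 to 5.94 CPM, against 2.63 to 5.00 CPM) were low, and erythroid markers summed to at most 0.164 CPM. These markers are human genes and host cells are mouse cells, so low values do not show that host cells were absent. Titles carry dates, and what the dates stand for is not given. By these dates the libraries were placed here in 3 sampling periods, each with a library of every group. The labels name no such periods. The day 40 library was dated 11, 26 and 39 days after the culture library of its period, and the day 19 library 18, 19 and 19 days after it. If these are sampling dates, the day 40 libraries at 11 and 26 days cannot come from a graft of that culture sample. Differences within a period are therefore not differences within 1 graft.

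KLF2 was expressed in DOHH2 cells from femurs and nearly silent in cultured cells. The gene lies at chr19:16324817-16327874 on the plus strand (hg38, GENCODE 29, as for all positions of whole genes given here). It had 0.170, 0.455 and 0.155 CPM in the culture libraries (4, 10 and 4 counts), 51.2, 49.1 and 50.5 CPM at day 19, and 72.4, 43.6 and 37.1 CPM at day 40. Every femur library lay far above every culture library, and the day 19 libraries were closer to each other than the day 40 libraries. The means were 50.3 ± 1.07 CPM at day 19 and 51 ± 18.8 CPM at day 40, against 0.260 ± 0.169 CPM in culture (SD, n = 3 each). The log2 fold change from edgeR was 7.61 (SE 0.36) at day 19 against culture and 7.63 (SE 0.36) at day 40 against culture. From the summed counts, the ratio to culture was 199 at day 19 (95% interval 126 to 337) and 204 at day 40 (129 to 344); these intervals cover counting error only. Within the 3 sampling periods the log2 difference from culture was 6.52 to 7.74 at day 19 and 6.34 to 8.17 at day 40.

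KLF2 is also a gene of endothelium, which lines the vessels of bone marrow, so markers of other cells are given beside it. Host vessel and stromal cells are mouse cells, while the counts are of human genes, and the treatment of mouse reads is not given. A count of 0 for a human marker therefore does not show that host cells were absent. Of 8 endothelial markers, CDH5, KDR, TEK, EMCN and THBD had 0 counts in all 9 libraries, and the list summed to 3.96 to 5.85 CPM at day 19 and 7.01 to 8.01 CPM at day 40, against 8.41 to 10.9 CPM in culture. PECAM1 and NOS3, which cultured cells also expressed, made up most of that sum, and the part of endothelial cells in the result was not tested. Of 8 stromal markers, COL1A2, COL3A1, LUM, POSTN and CXCL12 had 0 counts in all libraries. The stromal list summed to 4.05 to 6.80 CPM at day 19 and 3.48 to 4.57 CPM at day 40, against 0.0388 to 0.255 CPM in culture, and PDGFRB, the receptor for platelet-derived growth factor B, made up most of it with 3.96, 6.61 and 4.95 CPM at day 19 and 3.15, 3.82 and 3.36 CPM at day 40, against 0.0424, 0.0911 and 0 CPM in culture. The stromal list, in effect PDGFRB, moved with KLF2, and its part in the result was not tested. In bulk RNA, fewer cells that express a gene and less RNA per cell cannot be told apart. The processed pseudogene KLF2P2 had a mean of 1.82 CPM at day 19 and 1.88 CPM at day 40, against 3.42 CPM in culture, and the antisense neighbour KLF2-DT had at most 1 count in a library.

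DEPP1 (chr10:44970981-44978810, minus strand), which FOXO proteins induce on fasting and low PI3K activity and which acts in autophagy and oxidative stress, had the same direction at a lower level. It had 0, 0.0911 and 0.0388 CPM in culture (0, 2 and 1 counts, where a count of 0 allows up to 3), 7.91, 8.01 and 11.9 CPM at day 19, and 16.7, 2.51 and 3.73 CPM at day 40. All femur libraries were above all culture libraries, and replicate 1 at day 40 stood well above the other two day 40 libraries. With 3 counts in all of culture, the ratio of summed counts was 222 at day 19 (95% interval 75.6 to 1080) and 182 at day 40 (62.0 to 886). The log2 fold change from edgeR was 7.62 (SE 1.03) at day 19 and 7.34 (SE 1.04) at day 40, both against culture, and depends on how the fit treats such low counts. DEPP1 shares 23.3% of its exon bases with RASSF4 on the opposite strand, and the strand setting of the counting is not given in the sources used here. RASSF4 itself had a mean of 0.395 CPM at day 19 and 0.620 CPM at day 40, against 0.259 CPM in culture, well under the DEPP1 level in femur cells.

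CITED2 (chr6:139371807-139374620, minus strand), a co-regulator that binds the acetyltransferases p300 and CBP and so competes with the hypoxia factor HIF1A, was the third gene higher in femur cells. Its values were 22.4, 21.4 and 18.5 CPM in culture, 56.5, 38.7 and 48.1 CPM at day 19, and 69.8, 43.2 and 48.1 CPM at day 40. The femur and culture libraries did not overlap, and replicate 1 was again the highest of the day 40 libraries. CITED2 differed by a log2 fold change of 1.20 (SE 0.18) at day 19 and 1.37 (SE 0.18) at day 40, both against culture.

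**Figure D1:**
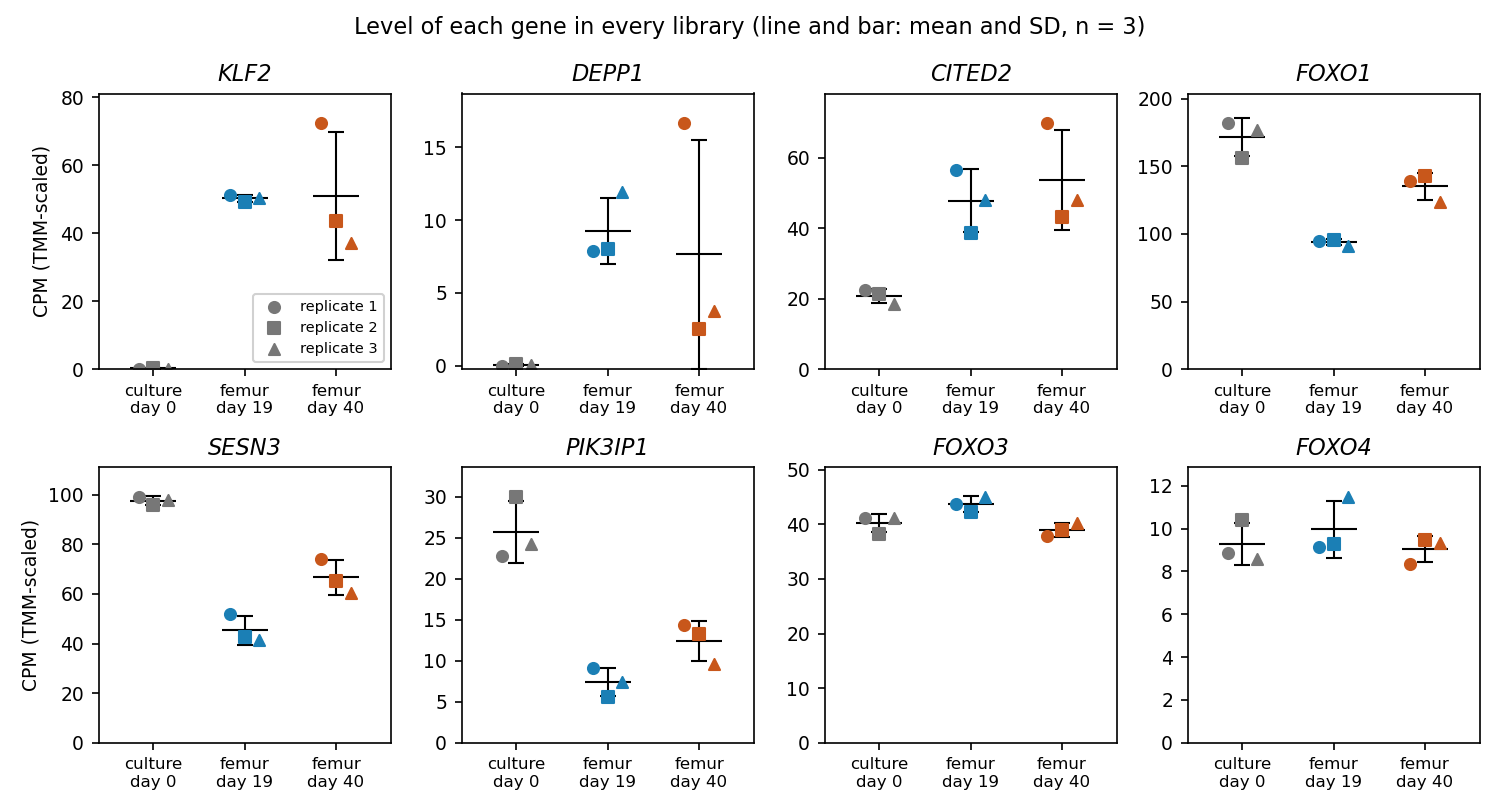
CPM of KLF2, DEPP1, CITED2, FOXO1, SESN3, PIK3IP1, FOXO3 and FOXO4 in each of the 9 libraries, by day, on linear axes that differ between panels; symbols are libraries and black lines and bars are the mean and SD of 3. KLF2 lies at 37.1 CPM or more in femur cells, against at most 0.455 CPM in culture, while SESN3, FOXO1 and PIK3IP1 are lowest at day 19 and intermediate at day 40.

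FOXO1, SESN3 and PIK3IP1 were lower in femur cells than in culture, the reverse of KLF2, DEPP1 and CITED2. FOXO1 (chr13:40469953-40666597, minus strand), the main FOXO factor of B cells, had 182, 156 and 177 CPM in culture, 95, 95.9 and 91.4 CPM at day 19, and 139, 143 and 124 CPM at day 40. The 3 groups did not overlap, with day 40 between day 19 and culture. The log2 fold change was -0.87 (SE 0.07) at day 19 and -0.34 (SE 0.07) at day 40, both against culture. SESN3 (chr11:95165513-95232541, minus strand), a sestrin that FOXO proteins switch on and that restrains the growth kinase complex mTORC1, had 99.3, 96.0 and 97.8 CPM in culture, 52.1, 42.7 and 41.4 CPM at day 19, and 74.3, 65.1 and 60.6 CPM at day 40. Its groups had the same order and did not overlap either. SESN3 differed by -1.11 (SE 0.10) at day 19 and by -0.55 (SE 0.09) at day 40 on the log2 scale, both against culture.

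PIK3IP1 (chr22:31281593-31292534, minus strand), a membrane protein that binds and inhibits the catalytic subunit of PI3K, was the least abundant of these 3 genes. It had 22.8, 30.0 and 24.2 CPM in culture, 9.10, 5.63 and 7.44 CPM at day 19, and 14.4, 13.2 and 9.63 CPM at day 40. Day 40 again lay between day 19 and culture with no overlap. The log2 fold change for PIK3IP1 was -1.79 (SE 0.19) at day 19 and -1.04 (SE 0.18) at day 40, both against culture. Within each of the 3 sampling periods FOXO1, SESN3 and PIK3IP1 were lower in both femur libraries than in the culture library.

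FOXO3 (chr6:108559835-108684774, plus strand) and FOXO4 (chrX:71096197-71103535, plus strand), the other FOXO factors of the group, had small fold changes. FOXO3 had 41.1, 38.3 and 41.2 CPM in culture, 43.7, 42.2 and 45.1 CPM at day 19, and 37.8, 38.9 and 40.2 CPM at day 40. FOXO4 had 8.87, 10.4 and 8.57 CPM in culture, 9.15, 9.27 and 11.5 CPM at day 19, and 8.37, 9.45 and 9.34 CPM at day 40. For FOXO3 the day 19 libraries were all above culture and the day 40 libraries overlapped it, and for FOXO4 both femur groups overlapped culture. Against culture, the log2 fold change was 0.12 (SE 0.07) at day 19 and -0.04 (SE 0.07) at day 40 for FOXO3, and 0.10 (SE 0.14) at day 19 and -0.04 (SE 0.14) at day 40 for FOXO4. With the total count as the only scaling, FOXO3 passed the threshold at day 19, with a log2 fold change of 0.21. The near-identical pseudogene FOXO3B had a mean of 6.64 CPM at day 19 and 5.89 CPM at day 40, against 3.70 CPM in culture, and how reads were divided between it and FOXO3 is not given in the sources used here.

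Counted over the 8 genes, 3 were called higher and 3 lower at day 19 against culture, in the edgeR quasi-likelihood test at a Benjamini-Hochberg adjusted p under 0.05. Over all genes tested in that comparison, 52.8% were called, 26.3% higher and 26.5% lower. The same 3 and 3 were called at day 40 against culture, where 46.6% of all genes were called, 23.3% higher and 23.3% lower. The groups did not overlap for 7 of the 8 genes at day 19 and for 6 at day 40, against 61.5% and 54.8% of all genes tested. The median log2 fold change of the 8 was 0.11 at day 19 and -0.04 at day 40, against 0.01 over all genes in each comparison. These counts describe genes that were selected with this contrast and are not read further, and the comparisons with culture share the culture libraries.

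The rule that chose the 8 genes, the rise of KLF2 and DEPP1 in femur cells, did not use day 40 against day 19. Earlier results of these data were known at that choice. Between these femur groups FOXO1, SESN3 and PIK3IP1 rose at day 40, and the other 5 genes did not pass the test. In this comparison 4.68% of all genes were called, 3.23% higher and 1.45% lower, against 3 higher and 0 lower of the 8 genes. The 710 genes behind that share were 280 to 1193 on leaving out 1 library and 99 with only the day 40 library of the third sampling period. FOXO1 averaged 135 ± 9.67 CPM at day 40 and 94.1 ± 2.39 CPM at day 19 (SD, n = 3 each), a log2 fold change of 0.52 (SE 0.07) with an adjusted p of 0.0017 in edgeR. SESN3 had a mean of 66.7 CPM at day 40 and 45.4 CPM at day 19, a log2 fold change of 0.55 (SE 0.09) with an edgeR adjusted p of 0.00537. PIK3IP1 had a mean of 12.4 CPM at day 40 and 7.39 CPM at day 19, a log2 fold change of 0.75 (SE 0.19) with an edgeR adjusted p of 0.0425. For all 3 genes the day 40 libraries did not overlap the day 19 libraries, and the difference was positive in 3 of 3 sampling periods, at 0.44 to 0.57 for FOXO1, 0.51 to 0.61 for SESN3 and 0.37 to 1.22 for PIK3IP1 on the log2 CPM scale. The PIK3IP1 call was lost in limma voom (adjusted p 0.0638) and on leaving out replicate 1 or 3 of culture, replicate 2 or 3 of day 19, or replicate 1 or 2 of day 40 (adjusted p 0.0507 to 0.184). With only the day 40 library dated 39 days after its culture library, a choice made after the data were seen, none of the 3 passed: the log2 fold change was 0.41 for FOXO1, 0.42 for SESN3 and 0.39 for PIK3IP1, with the lone library taken to vary like the other groups.

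KLF2, DEPP1 and CITED2 did not pass the test between the femur groups. The log2 fold change at day 40 against day 19 was 0.02 (SE 0.19) for KLF2, -0.28 (SE 0.52) for DEPP1 and 0.17 (SE 0.17) for CITED2, with edgeR adjusted p of 0.974, 0.865 and 0.704. Replicate 1 at day 40 had the highest value of that group for all 3. It also had the highest sum over 21 dissociation and immediate early genes, 6186 CPM against 3774 and 4447 CPM in the other day 40 libraries. On average at day 40, HSPA8 (1995 CPM) and HSP90AA1 (1573 CPM) made up most of that sum. Its bearing on KLF2, DEPP1 and CITED2 was not tested. Without replicate 1 of day 40 the DEPP1 difference was -1.58 with an edgeR adjusted p of 0.0119. The KLF2 difference was then -0.31 and the CITED2 difference -0.06, neither of which passed. For DEPP1 the difference by sampling period was 1.07, -1.64 and -1.66 on the log2 CPM scale. The DEPP1 difference was above 0 without replicate 2 (0.14) or replicate 3 (0.04) of day 40. FOXO3 at -0.16 (SE 0.07, adjusted p 0.228 in edgeR) and FOXO4 at -0.14 (SE 0.14, adjusted p 0.695 in edgeR) did not pass either.

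**Figure D2:**
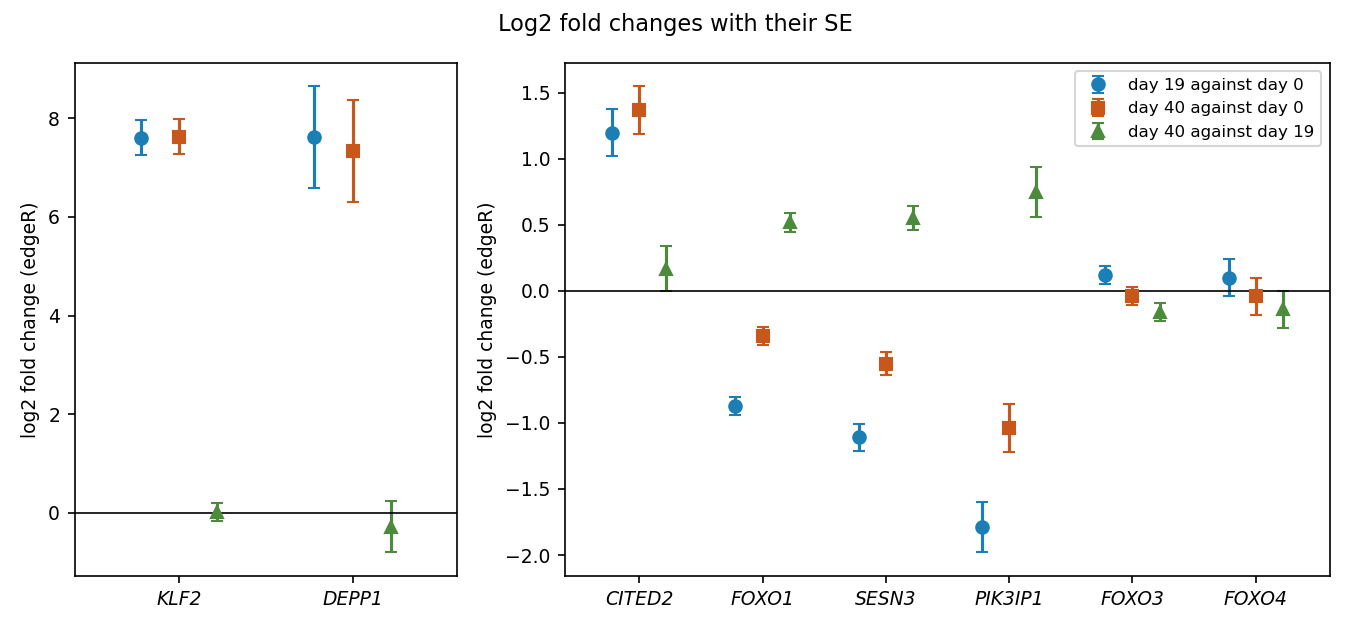
Log2 fold changes from edgeR with their SE for the 8 genes in the 3 pairwise comparisons of the days; KLF2 and DEPP1 have their own axis. FOXO1, SESN3 and PIK3IP1 are negative against day 0 and positive at day 40 against day 19 (0.52, 0.55 and 0.75).

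Per kilobase of exon, which allows levels of different genes to be compared, the order of the 8 genes differed between culture and femur. In culture FOXO1 led with 27.5 ± 2.17 CPM per kb, followed by SESN3 at 9.24, CITED2 at 8.19, PIK3IP1 at 6.75, FOXO3 at 5.20 and FOXO4 at 2.69 CPM per kb, with KLF2 at 0.129 and DEPP1 at 0.0145 CPM per kb. CITED2 and PIK3IP1 overlapped in that order, and the other neighbours did not. At day 19 KLF2 led with 24.9 ± 0.529 CPM per kb, ahead of CITED2 at 18.8 and FOXO1 at 15.1 CPM per kb, whose libraries overlapped. FOXO3 followed at 5.65, SESN3 at 4.30, DEPP1 at 3.12, FOXO4 at 2.89 and PIK3IP1 at 1.94 CPM per kb; DEPP1 overlapped both SESN3 and FOXO4. At day 40 KLF2 at 25.3 ± 9.33, FOXO1 at 21.7 and CITED2 at 21.2 CPM per kb overlapped one another, SESN3 at 6.31 and FOXO3 at 5.04 CPM per kb followed, and PIK3IP1 at 3.26, FOXO4 at 2.63 and DEPP1 at 2.57 CPM per kb came last and overlapped, with DEPP1 spread from 0.844 to 5.61 CPM per kb. With the length of the longest transcript in place of all exons, DEPP1 at 3.61 CPM per kb came before FOXO4 at 2.74 CPM per kb at day 40. With that length FOXO4 also no longer overlapped PIK3IP1 at day 40 or DEPP1 at day 19.

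Within the FOXO family the balance shifted away from FOXO1 in femur cells. FOXO6, a family member best known from brain and not one of the 8 genes, had 7.60, 8.88 and 7.52 CPM in culture, 13.1, 21.1 and 19 CPM at day 19, and 10.8, 16.4 and 19 CPM at day 40. Its log2 fold change from edgeR was 1.15 (SE 0.21) at day 19 and 0.94 (SE 0.21) at day 40, both against culture. FOXO6 was named after its values were seen, so these values are a description and are given without a p-value. Of the FOXO reads per kb, FOXO1 made up 70.9% ± 2.38 in culture, with 48.7% ± 3.34 at day 19 and then 60.7% ± 4.79 at day 40 (SD, n = 3 each), and FOXO6 8.65%, 23.7% and 17.8% on those days. FOXO3 made up 13.4% in culture, 18.3% at day 19 and 14.1% at day 40. The FOXO1 share did not overlap between any of the 3 groups, and no test was made of it. Summed over the 4 FOXO genes, levels were 214 to 239 CPM in culture, 161 to 169 CPM at day 19 and 193 to 207 CPM at day 40.

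**Figure D3:**
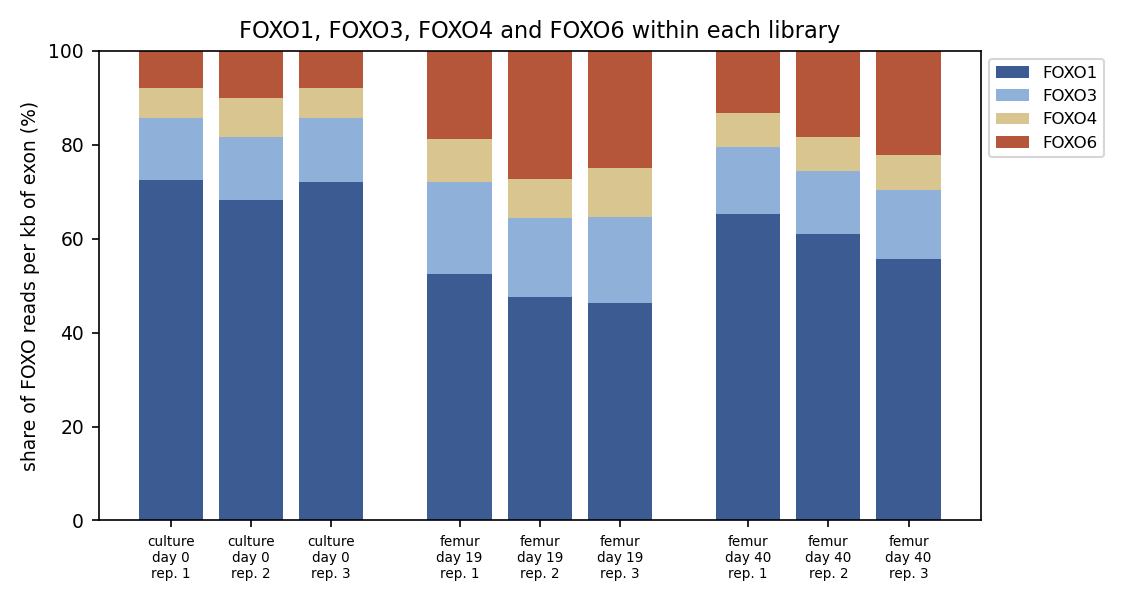
Share of FOXO1, FOXO3, FOXO4 and FOXO6 in their summed reads per kb of exon, in percent, for each of the 9 libraries. FOXO1 holds 68.2% to 72.5% in culture, 46.2% to 52.5% at day 19 and 55.7% to 65.3% at day 40, while FOXO6 is larger in every femur library than in culture.

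Across all 9 libraries 6 of the 8 genes fell on 2 opposite patterns. Pearson's r of log2 CPM with KLF2, used here only to rank likeness because the libraries fall into separate groups, was 0.977 for DEPP1 and 0.946 for CITED2, against -0.789 for FOXO1, -0.841 for PIK3IP1 and -0.830 for SESN3; FOXO3 had 0.177 and FOXO4 0.143. With SESN3, FOXO1 had 0.964 and PIK3IP1 0.970. Among 10307 genes with sufficient level, those most like KLF2 were SENP7, IRF1, LINC00996, RASSF1 and UTRN (0.994 to 0.996), and the most opposite were DESI1, FAM98A and TMEM97 (-0.995 to -0.994). IRF1, an interferon-induced transcription factor, averaged 46.5 CPM at day 19 and 45.3 CPM at day 40, against 4.03 CPM in culture. Most like SESN3 were MAP3K7, ACY3, RAB30, CYTIP and DYRK2 (0.990 to 0.992), and the most opposite were SCMH1, NXN and RIMS3 (-0.994 to -0.991).

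Of 21 tested genes of PI3K and AKT signalling, 5 rose and 8 fell at day 19, and 4 rose and 9 fell at day 40, against culture; the median log2 fold change was -0.01 and -0.06, against 0.01 over all genes. Over all genes 26.3% rose and 26.5% fell at day 19 and 23.3% rose and 23.3% fell at day 40, which is the background for this and every list count against culture that follows. PIK3CD, the PI3K catalytic subunit typical of lymphocytes, rose by a log2 fold change of 1.01 at day 19 (edgeR adjusted p 4.43e-08) and 0.65 at day 40 (3.52e-06). AKT1 rose by 0.55 and 0.34, and the regulatory subunit PIK3R1 by 0.46 and 0.20, on the log2 scale at day 19 and day 40; the day 40 call of PIK3R1 (edgeR adjusted p 0.044) was lost in most alternatives. PIK3CG, the catalytic subunit used by chemokine receptors, fell by 1.4 and 0.98, and its adaptor PIK3R5 by 0.91 and 1.06, on the log2 scale. INPP5D, the phosphatase SHIP1, had a log2 fold change of -0.14 at day 19, which did not pass, and fell by 0.22 at day 40 (edgeR adjusted p 0.0114, lost with total count scaling). SGK1, a kinase related to AKT that also phosphorylates FOXO, had a log2 fold change of 2.39 at day 40, with 12.8, 2.95 and 2.01 CPM at day 40 against 0.934, 0.911 and 1.51 CPM in culture, and of 1.13 without replicate 1 of day 40.

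Proteins that modify or hold FOXO had small fold changes apart from SFN. Of 20 tested, 4 rose and 8 fell at day 19 and 3 rose and 9 fell at day 40, with medians of -0.09 and -0.06. The deacetylase SIRT1 rose by 0.48 and 0.41 and the acetyltransferase EP300 by 0.40 and 0.41 on the log2 scale, and CREBBP, its close relative, by 0.35 and 0.34. SKP2, a ubiquitin ligase subunit that targets FOXO1, rose by 0.42 at day 19. SFN, the 14-3-3 protein sigma, fell by 2.18 and 1.83, and the kinase NLK by 0.55 and 0.39. All of these calls are from edgeR with adjusted p of 0.0132 or less. The day 40 call of SIRT1 was lost without replicate 1 of day 40 (adjusted p 0.0592). With total count scaling 5 of the 20, not 8, were called lower at day 19.

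Other genes known to be under FOXO control included calls in both directions, as all genes did. Of 14 tested genes of cell cycle and death, 7 rose and 4 fell at day 19, and 6 rose and 2 fell at day 40, with medians of 0.39 and 0.31, against 0.01 over all genes, of which 26.3% rose and 26.5% fell at day 19 and 23.3% rose and 23.3% fell at day 40. The cyclin-dependent kinase inhibitor CDKN1B (p27) had 89.3, 79.2 and 95.5 CPM at day 19, against 35.1, 44.9 and 35.2 CPM in culture, and rose by a log2 fold change of 1.20 at day 19 (edgeR adjusted p 2.48e-06) and 0.80 at day 40 (1.02e-04). GADD45A and GADD45B, stress sensors that slow the cell cycle, rose by 1.07 and 1.25 at day 19 and by 0.95 and 1.34 at day 40, and BCL2L11, the death protein BIM, by 0.52 and 0.37 at day 19 and day 40. BCL6, the repressor that defines germinal centre B cells, had 58.2, 52.8 and 57.2 CPM at day 19, against 470, 416 and 396 CPM in culture, and fell by 2.93 at day 19 and 1.67 at day 40 on the log2 scale. CDKN1A (p21), which BCL6 represses, fell too, by 2.01 and 1.07. CCNG2 and TXNIP did not pass in either comparison, with log2 fold changes of -0.12 and 0.02 for CCNG2 and -0.19 and 0.20 for TXNIP at day 19 and day 40.

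Of 15 tested FOXO-regulated genes of metabolism, stress and autophagy, 5 rose and 2 fell at day 19 and 6 rose and 3 fell at day 40, with medians of -0.00 and -0.07. ULK1, the kinase that starts autophagy, rose by 1.5 (edgeR adjusted p 1.38e-07) and 1.0 (7.61e-06), TRIB1 by 1.03 and 0.70, and KLHL24 by 0.74 and 0.65 on the log2 scale at day 19 and day 40. PRDX3, a mitochondrial peroxidase, fell by 0.26 and 0.36, and BNIP3, a protein of mitochondrial clearance, by 0.51 at day 40. SESN1, the sestrin next to SESN3 in function, fell with it, by 1.86 (edgeR adjusted p 4.73e-07) and 1.01 (7.87e-05), and SESN2 fell by 0.84 and 0.51. The GATOR genes, through which sestrins act on mTORC1, gave smaller values: of the 12 sestrin and GATOR genes tested, 3 rose and 4 fell in each comparison with culture, with MIOS among the rises at 0.32 and 0.47, and with medians of 0.02 and -0.09. WDR59 at 0.23 at day 19 and DEPDC5 at 0.21 at day 40 were also called, but lost the call in several alternatives. PDK4 and IRS2, classical FOXO targets of liver and muscle, had too few counts to be tested.

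Lymphocyte genes under FOXO or KLF2 control included large folds. Of 6 tested FOXO-regulated lymphocyte genes 4 rose and 1 fell in each comparison with culture, with medians of 2.18 and 1.55. S1PR1, the receptor that guides lymphocytes out of tissues and the best known KLF2 target, had 12.8, 11.3 and 10.8 CPM at day 19 and 22.1, 10.7 and 10.3 CPM at day 40, against 0.594, 0.455 and 1.98 CPM in culture. It rose by a log2 fold change of 3.48 (SE 0.43) at day 19, with an edgeR adjusted p of 3.27e-05, and of 3.79 (SE 0.43) at day 40, with 2.44e-05. RAG1, which cuts DNA to assemble antigen receptor genes, had 11.3, 17.0 and 17.2 CPM at day 19 and 3.59, 3.22 and 2.54 CPM at day 40, against 0.509, 0.501 and 0.271 CPM in culture. It rose at day 19 with a log2 fold change of 5.15 and an edgeR adjusted p of 2.50e-08, and at day 40 with 2.87 and 1.09e-05. Its partner RAG2, which it overlaps on the opposite strand and which stayed below 5 CPM, rose as well. IL7R rose by 0.89 at day 19 and by 0.23 at day 40, the day 40 value with an edgeR adjusted p of 0.0422 that several alternatives did not keep. CCR7 had too few counts to be tested.

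Of 5 tested genes under KLF2 control in lymphocytes or endothelium, S1PR1 (also in the preceding list) rose and ITGB7 and FCER2 fell in each comparison with culture, with medians of -0.50 and -0.15. ITGB7, an integrin subunit of lymphocyte homing to the gut, fell by 4.15 (edgeR adjusted p 3.17e-07) and 3.38 (1.52e-06) on the log2 scale; 42.1% of its exon bases overlap ZNF740 on the opposite strand. FCER2 was below 1.1 CPM in every library. Among the other KLF factors, 6 of 16 had enough counts, 2 rose and 2 fell at day 19, and 2 rose and 1 fell at day 40, with medians of -0.28 and -0.09. KLF6 rose by 0.88 and 1.24 and KLF16 by 0.47 and 0.32, KLF10 fell by 0.78 and KLF12 by 0.58 at day 19, with the day 40 call of KLF16 lost on leaving out 1 of several libraries, and KLF3 and KLF4 had too few counts to be tested.

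The genes that act on KLF2 in endothelium were called in both directions, as were all genes. Of 13 tested genes of MEK5, ERK5, MEF2 and the KLF2 ubiquitin ligases, 6 rose and 5 fell in each comparison with culture, with medians of -0.03 and 0.00; over all genes 52.8% were called at day 19 and 46.6% at day 40, split evenly. MAP2K5, which encodes MEK5, rose by 0.78 (edgeR adjusted p 1.19e-04) and 0.81 (1.27e-04), and MAPK7, which encodes ERK5, by 0.61 (1.72e-04) and 0.44 (0.00223) on the log2 scale. MEF2D rose by 0.72 and 0.41. MEF2C, a MEF2 factor of B cells, had 66.6, 52.7 and 57.4 CPM at day 19, against 214, 230 and 193 CPM in culture. It fell by 1.85 (edgeR adjusted p 3.49e-08) and 1.22 (1.82e-06). MEF2A fell by 0.65 and 0.47. MEF2B fell by 0.87 at day 19, and its day 40 value of -0.39 was called but not in several alternatives; it shares 73.9% of its exon bases with the readthrough gene BORCS8-MEF2B. HDAC7, which represses MEF2, fell by 0.73 and 0.42, and SMURF1, a ligase that degrades KLF2, rose by 0.46 and 0.48. Of 4 tested partners of CITED2, HIF1A, EP300 and CREBBP rose in each comparison with culture, with medians of 0.38 and 0.29; HIF1A rose by 0.49 and 0.23.

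Genes switched on by tissue dissociation also moved with the femur groups. Of 17 tested, 10 rose and 0 fell at day 19 and 12 rose and 0 fell at day 40, with medians of 0.88 and 1.46, against 0.01 over all genes; with DESeq2, 2 fell at day 19 and 1 at day 40. The summed level of all 21 genes was not higher throughout, at 4252 to 4840 CPM at day 19 and 3774 to 6186 CPM at day 40, against 4827 to 4946 CPM in culture. Most of that sum came from HSPA8 and HSP90AA1, neither of which was called against culture. HSPA8 averaged 1953 CPM at day 19, 1995 CPM at day 40 and 2280 CPM in culture, and HSP90AA1 1584, 1573 and 1956 CPM. The sum therefore gives little weight to the other genes of the list. FOS had 20.9, 16.7 and 24.1 CPM at day 19 and 44.5, 17.5 and 23.4 CPM at day 40, against 0.170, 5.37 and 0.155 CPM in culture. FOSB rose by 3.53 and 3.59 and DUSP1 by 3.15 and 3.14 on the log2 scale (edgeR adjusted p of 1.93e-04 or less). The heat shock gene HSPA1B had a log2 fold change of 3.50 at day 40, and of 1.32 without replicate 1 of day 40, which held 250 CPM; the call was lost in limma voom (adjusted p 0.0823), and its reads are hard to tell from those of HSPA1A. KLF2, KLF6 and CITED2 are themselves quickly induced genes, and the part of this program in their values was not tested.

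**Figure D4:**
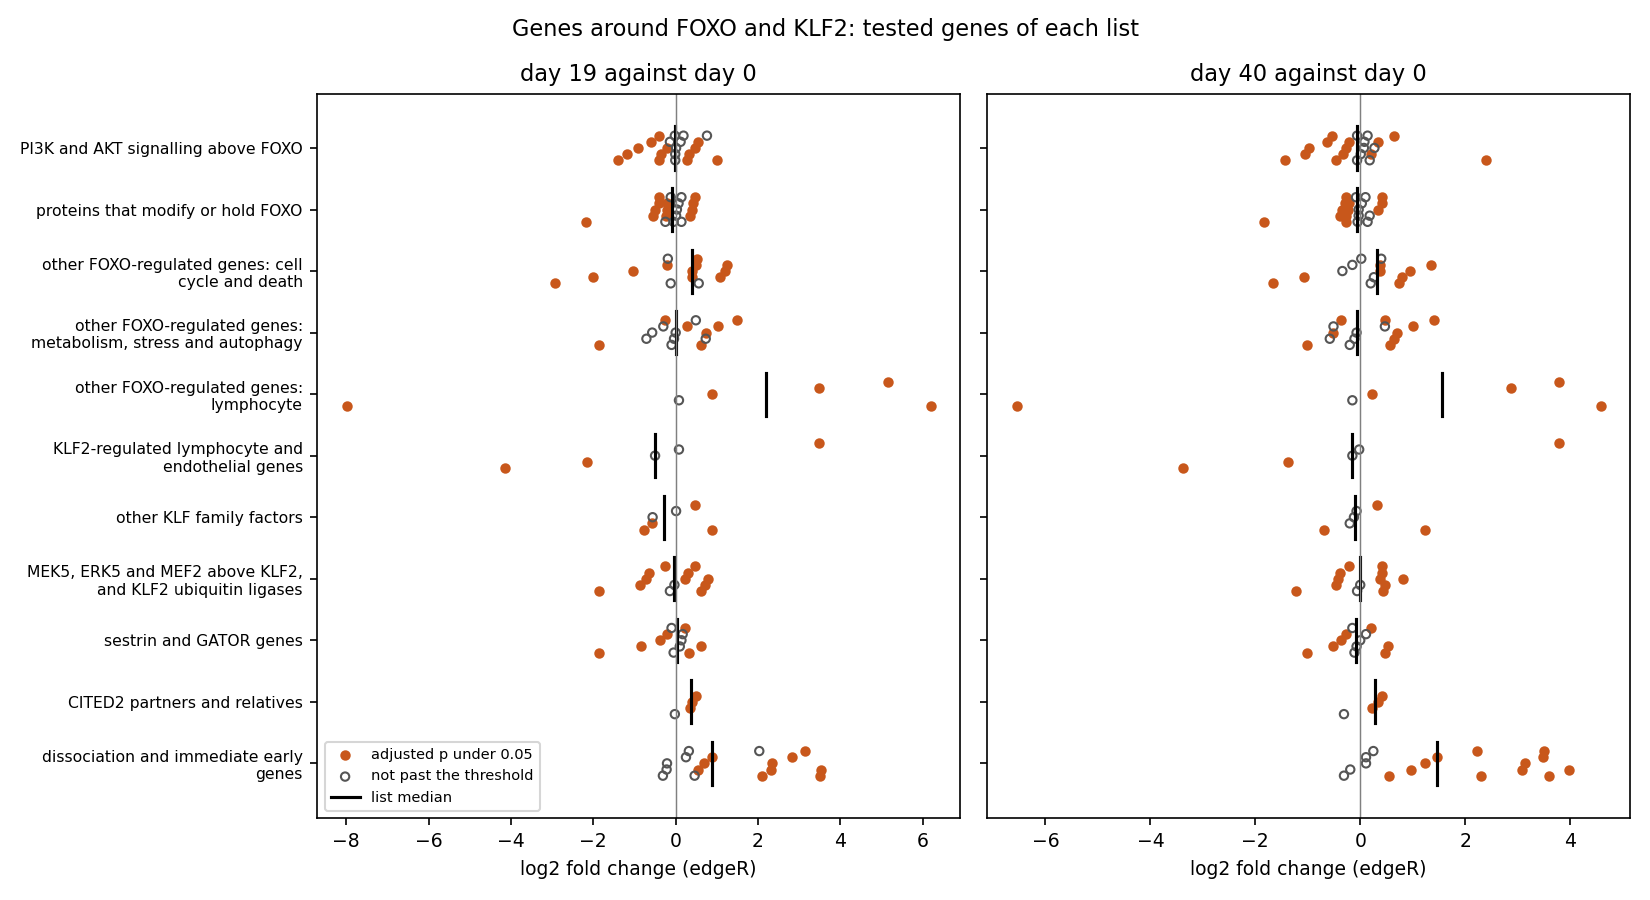
Log2 fold changes against day 0 at day 19 (left) and day 40 (right) for the tested genes of 11 lists around FOXO and KLF2; filled points passed an edgeR adjusted p of 0.05, open points did not, and vertical bars are list medians. The PI3K, FOXO-modifying and MEF2 lists spread to both sides of 0, and the dissociation list lies mostly above it, with medians of 0.88 and 1.46.

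Between day 40 and day 19 fewer genes of each list passed than against culture, as over all genes. BCL6 rose at day 40 with a log2 fold change of 1.26 (edgeR adjusted p 5.34e-06), at 136, 138 and 130 CPM against 58.2, 52.8 and 57.2 CPM at day 19. CDKN1A rose by 0.94, BBC3, the death protein PUMA, by 0.69, SESN1 by 0.85, KLF10 by 0.71, MEF2C by 0.63 and HDAC7 by 0.31. RAG1 fell by 2.27 and IL7R by 0.65, RAG2 by 1.61, ULK1 by 0.50, PIK3CD by 0.36 and HIF1A by 0.26. All had an edgeR adjusted p of 0.0272 or less. Against culture at day 19, a comparison that uses the same day 19 libraries, the 7 genes higher at day 40 were called lower and the 6 genes lower at day 40 were called higher. The HIF1A call was lost on leaving out any of the 6 femur libraries, the BBC3 call on leaving out any of them but replicate 3 of day 40, the KLF10 call on leaving out any day 19 library, the HDAC7 call on leaving out replicate 1 or 2 of day 19, and the ULK1 call on leaving out replicate 2 of day 19. With only the day 40 library of the third sampling period, the calls of CDKN1A, SESN1, MEF2C, IL7R and PIK3CD were lost as well, and those of BCL6 and RAG1 were not. By list, 3 of 14 genes of cell cycle and death rose, 3 of 6 lymphocyte genes fell, 1 of 21 PI3K genes fell, 2 of 13 genes of the MEF2 list rose, and 0 of 20 FOXO-modifying genes and 0 of 17 dissociation genes were called. Over all genes, 4.68% were called in this comparison, 3.23% higher and 1.45% lower.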

How the data were processed

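Bulk RNA-seq covered cultured DOHH2 cells and CD20+ cells of femurs, 3 libraries for each of the 3 sampling days. The authors deposited whole-number read counts per gene, not normalized. FastQC 0.11.5, STAR 2.5.2a with hg38, featureCounts 1.4.6 and DESeq2 1.40.1 are named, per the submitters' processing notes; annotation, strand setting, and the treatment of multimapping and mouse reads were not given in the sources used here. Identifiers were named with a gene-names table (57532 of 58243) or GENCODE 29 (448 more), and 263 kept no symbol. Positions and exon lengths are from GENCODE 29 and promoter windows from RefSeq, GRCh38.p14.

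In R 4.3.3 with edgeR 4.0.16, genes were kept by filterByExpr (15163), scaled by TMM, and tested with the two-sided quasi-likelihood F-test over all 9 libraries with a coefficient per group; Benjamini-Hochberg adjusted p under 0.05 was called. Log2 CPM used a prior count of 2. The procedure was run on simulated data with 200 changed genes per comparison. Far more genes were called against culture, so the simulation does not cover that setting. DESeq2 1.42.0, limma 3.58.1 (voom), other scalings and filters, a block for sampling period, fits to 2 groups and leaving out each library were alternatives. Replicate numbers follow accession order and coincide with the sampling periods.

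The 8 genes and all lists were chosen with earlier results of these data known. Beyond the 8 genes and a fixed set, up to 3 higher and 2 lower called genes per list and comparison with at least 5 CPM are named, plus the 5 most like and 3 most opposite genes for KLF2 and SESN3 and genes that could share reads with the 8. PDGFRB, FOXO6, FCER2 and RAG2 were named after their values were seen. Intervals cover counting error only. Some genes of the lists enter the counts and medians but are not reported here by name.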

Additional observations from a re-analysis of the deposited data

Results flagged for a closer look

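Of the 8 genes, FOXO1, PIK3IP1 and SESN3 differed between the day 40 and the day 19 effects, both taken against the same culture libraries, by 0.52, 0.75 and 0.55 on the log2 scale, by the edgeR test of day 40 against day 19. The same test singled out, among genes of the lists, BCL6 at 1.26, CDKN1A at 0.94, SESN1 at 0.85, KLF10 at 0.71, BBC3 at 0.69, MEF2C at 0.63 and HDAC7 at 0.31, all higher at day 40 than at day 19. RAG1 at -2.27, IL7R at -0.65, ULK1 at -0.50, PIK3CD at -0.36 and HIF1A at -0.26 were lower at day 40 than at day 19. The dates in the titles place day 40 libraries 11, 26 and 39 days after the culture libraries of their periods, and the bearing of this on these differences was not tested beyond the fit that keeps only the day 40 library dated 39 days after its culture library.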

How the results depend on the processing

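The rise against culture selected the 8 genes, so their calls against culture say nothing about stability. The number of genes called at day 40 against culture was 7065, and 4065 with only the day 40 library of the third sampling period, an alternative chosen after seeing the data. At day 40 against day 19 it was 710, against 1324 with no filter, 1100 in a fit of those 2 groups, 99 with that library only, and 280 to 1193 on leaving out 1 library (280 without replicate 3 and 285 without replicate 2 of day 19, 381 without replicate 1 and 420 without replicate 2 of day 40, 1193 without replicate 2 of culture); of the 8 genes 3 were called, 2 or 3 on leaving out 1 library, 2 in voom and 0 with that library only. Several of these fits held fewer libraries, and the cause of the changes was not tested. With total count scaling the median of all genes moved to 0.10 and the split to 4652 higher and 3216 lower at day 19 (3994 and 4013 in TMM) and 4155 and 2650 at day 40 (3527 and 3538). Values that changed sign were all of genes that had not passed: against culture, FOXO3 at day 40 (0.04, total scaling), FOXO4 at day 19 (-0.01 to 0.19 on leaving out 1 library) and day 40 (0.05, total scaling; -0.11 to 0.04 on leaving out 1 library), and CCNG2 at day 40 (-0.00 with no filter, -0.03 with that library only; -0.09 to 0.07 on leaving out 1 library); and at day 40 against day 19, KLF2 (-0.04 in voom, -0.03 with the period block, -0.43 with that library only; -0.31 to 0.21 on leaving out 1 library), DEPP1 (-1.58 to 0.14 on leaving out 1 library) and CITED2 (-0.06 to 0.31 on leaving out 1 library). At day 40 against culture, the calls of BNIP3, EP300, HIF1A, INPP5D, MEF2B, NLK, PIK3R1, SGK1 and SIRT1 were lost with that library only. The counts of called genes per list also depended on the processing. Over all lists, comparisons and the alternatives in which they were counted, 64 list counts moved by more than a set factor and 398 did not. Fits that leave out 1 library were not among these alternatives. Culture holds 18 KLF2 counts and 3 DEPP1 counts in all, which limits their folds. A block for sampling period, which pairs libraries by the dates in their titles, changed no call among the 8 genes.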
